A study of Canis lupus familiaris with 8 samples.

Results

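The genes described here are transporters that carry amino acids across the plasma membrane, measured in the hearts of dogs with hyperhomocysteinemia (HHcy), in which the blood holds too much homocysteine, an amino acid made from methionine. The set named 6 genes, SLC1A1, SLC3A2, SLC7A1, SLC7A2, SLC7A5 and SLC38A2, and took every probe set to which the platform annotation gives one of these as its single symbol. That gave 6 of the 23913 probe sets on the array, 1 for SLC1A1, 1 for SLC7A1 and 4 for SLC38A2. The 3 other genes, SLC3A2, SLC7A2 and SLC7A5, had no probe set under that rule and were not analysed here. The genes were chosen with the comparison of HHcy with control already known, so their differences are given as a description, and no independent readout was at hand to test them.

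The HHcy group held 4 male dogs, HHcy 5 to HHcy 8, which drank water with added methionine, and the control group held 4 male dogs, control 1 to control 4. Cardiac RNA was taken at 2 weeks from dogs of 23 to 27 kg and hybridised to Affymetrix canine arrays, 1 per dog. The labels give no age, breed or heart chamber and no allele or agent shared by both groups. The series asks how chronic HHcy changes cardiac gene expression.

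Amino acid transporters are grouped by their substrates and by whether they use the sodium gradient. SLC1A1, also called EAAT3 or EAAC1, uses that gradient to bring in glutamate, aspartate and cysteine, and is best known from neurons, kidney and intestine, where imported cysteine can feed glutathione synthesis. SLC7A1 is a carrier of the cationic amino acids arginine, lysine and ornithine, and SLC38A2, also called SNAT2, is a sodium-coupled carrier of small neutral amino acids such as alanine, glutamine and methionine whose transcript is known from human and rat cells to increase when amino acids are scarce.

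Some arrays stood apart from the others. The 3'/5' signal ratio is a sign of RNA breakdown when it is high. For actin it was 15.3 and 600 on HHcy 5 and HHcy 6, 1.69 to 2.67 on HHcy 7 and HHcy 8, and 0.378 to 2.49 on the controls. For GAPDH it was 17.2 and 10.5 on HHcy 5 and HHcy 6, 5.1 and 3.6 on HHcy 7 and HHcy 8, and 1.5 to 3.8 on the controls. Actin and GAPDH thus put HHcy 5 and HHcy 6 in opposite orders. The mean log2 ratio of actin and GAPDH was 3.38 ± 2.28 in HHcy dogs and 0.90 ± 0.90 in control dogs (SD, n = 4 each), with an exact two-sided permutation p of 0.0857, 0.0286 being the smallest possible. Of 15 cardiomyocyte markers, 11 were on the array. Their summed signal was 16500 on HHcy 6, 225800 to 254400 on HHcy 5, 7 and 8 and 210500 to 327300 on the controls. The markers that define heart muscle were thus much lower on HHcy 6, but unevenly so. There MYH7 still read 6889, the highest of the 11, whereas TNNT2 at 24.55 and MYL3 at 27.4 were the lowest. In bulk tissue, fewer cells of a type and less RNA per cell cannot be told apart. The part of RNA breakdown in these marker values was not tested.

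SLC1A1 was the transporter with the widest difference. Its probe set had a signal of 476 on HHcy 5, 563 on HHcy 6, 49.0 on HHcy 7 and 690 on HHcy 8, against 22.7, 16.2, 9.39 and 5.88 on controls 1 to 4. All 4 HHcy arrays were above all 4 controls, but HHcy 7 was far closer to the controls than to the other HHcy dogs. The mean signal was 444 ± 278 in HHcy dogs and 13.5 ± 7.47 in control dogs (SD, n = 4 each).

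Every control signal of SLC1A1 lay under 24 units, the 20th percentile of all values on the arrays and the pseudocount added before taking logarithms. The size of the fold therefore depends on that number. The log2 fold change of log2(signal + 24) was 3.25 ± 0.65 (SE), which became 4.11 if 6 was added to the signal and 2.06 if 96 was added. No fold of the signals themselves is given. Only 1 probe set reports SLC1A1, so no second one can be set beside it.

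By difference from the control mean on the log2(signal + 24) scale, HHcy 5, HHcy 6 and HHcy 8 stood 3.76, 3.99 and 4.27 above it and HHcy 7 stood 0.98 above it. The controls lay from -0.31 to 0.34. The standard deviation on that scale was 1.53 in HHcy and 0.29 in controls, while the medians over all tested probe sets were 0.49 and 0.44. A lower standard deviation in HHcy was found in 97.8% of the tested probe sets. On this scale the HHcy dogs thus differed among themselves in SLC1A1 more than in most transcripts. As every control signal lay under the added 24, the scale narrows the spread of the controls. On the signals themselves the standard deviation was 62.5% of the mean in HHcy and 55.2% in controls.

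In the limma fit over the 14301 probe sets bright enough to test, SLC1A1 had an adjusted p of 0.0997 (0.00126 to 0.845 over all alternatives). It did not pass the threshold of 0.05. Without HHcy 7, the HHcy array of lowest SLC1A1 signal, its log2 fold change was 4.01 and the limma adjusted p 0.00126. With array weights the values were 3.17 and 0.0499. The limma adjusted p was 0.301 without HHcy 5, 0.135 without HHcy 6, 0.125 without control 1 and 0.201 without control 2. Of the 5 tested probe sets of the transporters, limma called 0 (2 at an unadjusted p under 0.05), against 0.0979% of all tested probe sets called and 17.8% with an unadjusted p under 0.05. SLC1A1 stood 0.28 log2 units above the brightness limit of the filter, and it passed that limit through its HHcy signals.

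The 3'/5' ratio and the SLC1A1 signal had different orders over the HHcy arrays. HHcy 8 had the highest SLC1A1 signal with an actin 3'/5' ratio of 1.69, within the range of the controls. HHcy 7 had the lowest HHcy signal with a ratio of 2.67, above the highest control at 2.49. For GAPDH, HHcy 8 was at 3.6, within the range of the controls, and HHcy 7 was at 5.1, above that range. With HHcy 5 and HHcy 6 left out and no filter on dim probe sets, the log2 fold change was 2.62 (limma adjusted p 0.544). Only HHcy 7 and HHcy 8 were then left, at 0.98 and 4.27 above the control mean, so most of that value came from HHcy 8. In a fit that took the 3'/5' ratio into account the log2 fold change of SLC1A1 was 2.75 (limma adjusted p 0.845). The cause of the SLC1A1 difference was not tested.

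**Figure D1:**
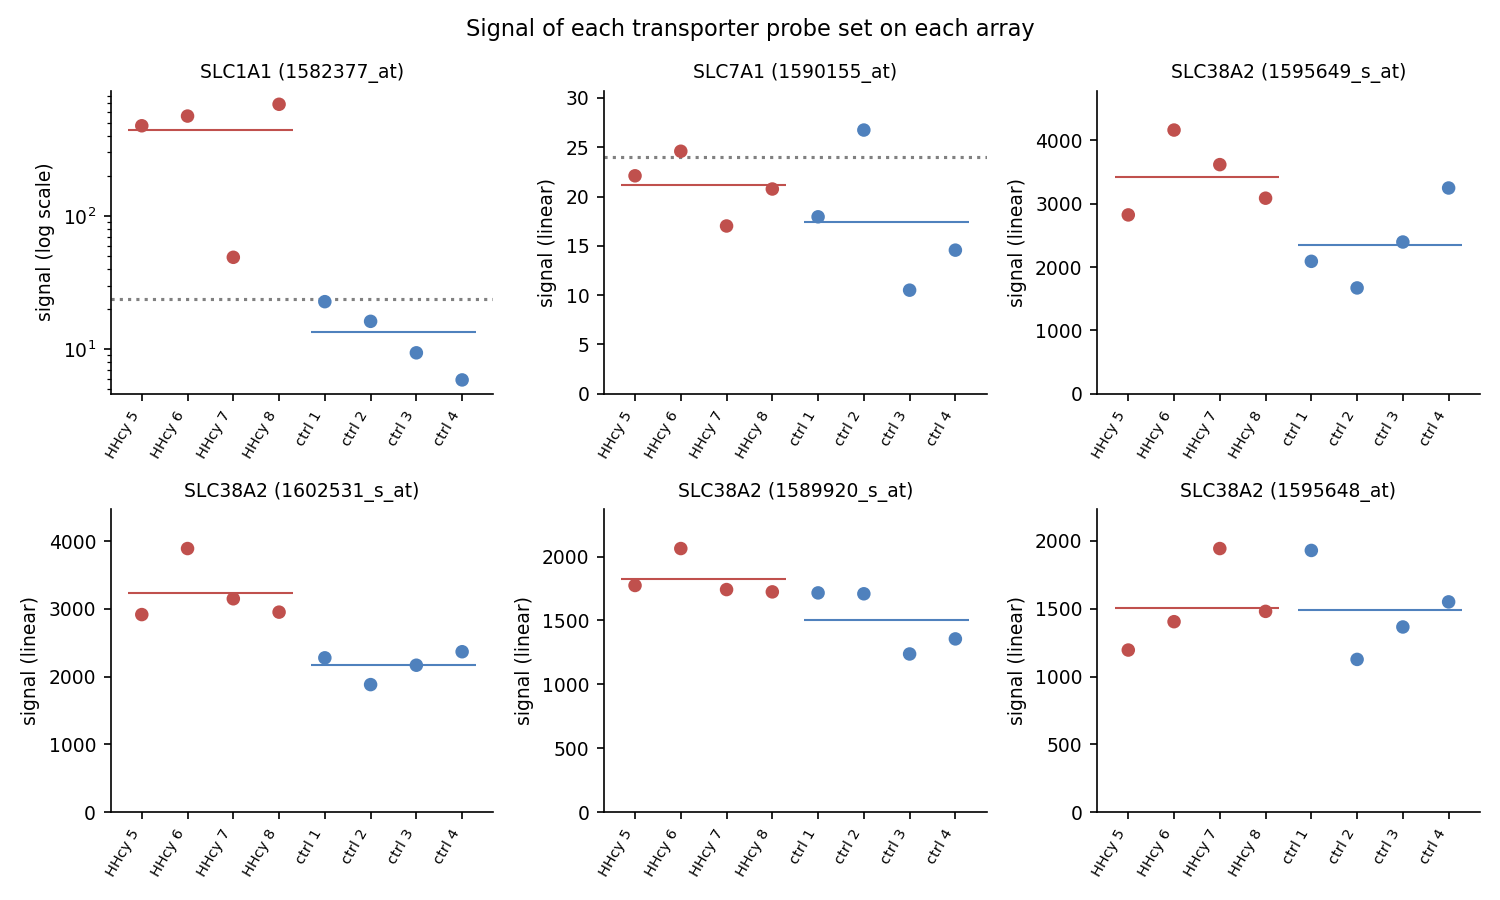
Signal of each of the 6 transporter probe sets (y axis, array units, logarithmic for SLC1A1 and linear from 0 for the others) on each HHcy and control array (x axis). Points are arrays, horizontal lines are group means and the dotted line is the pseudocount of 24; SLC1A1 reads 49.0 to 690 in HHcy and 5.88 to 22.7 in controls, SLC7A1 stays near or under 24 on all 8 arrays, and the 4 SLC38A2 probe sets are bright in both groups.

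SLC7A1, the arginine carrier, was not seen above the dim end of the array in either group. Its signal was 22.1, 24.6, 17.0 and 20.8 on HHcy 5 to HHcy 8, against 17.9, 26.7, 10.5 and 14.6 on controls 1 to 4. The groups overlapped, and 3 of the 4 arrays in each group lay under 24 units. The mean was 21.1 ± 3.16 in HHcy dogs and 17.4 ± 6.91 in control dogs (SD, n = 4 each). The probe set fell below the brightness filter, and without the filter its log2 fold change was 0.13 ± 0.27 (SE, limma adjusted p 0.849). Signals this dim leave little room to see a fall or a small change, and no rise such as that of SLC1A1 was seen.

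SLC38A2, the system A carrier that takes up methionine among other neutral amino acids, was bright on every array, and its 4 probe sets did not give one answer. The probe set 1602531_s_at had signals of 2915, 3889, 3148 and 2951 on HHcy 5 to HHcy 8, against 2277, 1882, 2168 and 2367 on controls 1 to 4. The groups did not overlap, and HHcy 6 was the highest array. The means were 3226 ± 454 in HHcy dogs and 2173 ± 211 in control dogs (SD, n = 4 each), a log2 fold change of 0.56 ± 0.22 (SE, limma adjusted p 0.226, and 0.205 to 0.931 over all alternatives).

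The probe set 1595649_s_at read 2823, 4163, 3617 and 3087 on HHcy 5 to HHcy 8, against 2090, 1670, 2395 and 3248 on controls 1 to 4. Control 4 lay above HHcy 5 and HHcy 8, so the groups overlapped, with a log2 fold change of 0.56 ± 0.26 (SE, limma adjusted p 0.286). For 1589920_s_at the signals were 1774, 2063, 1742 and 1724 on HHcy 5 to HHcy 8, against 1716, 1709, 1238 and 1356 on controls 1 to 4. These groups did not overlap, but HHcy 8 and control 1 were almost level, and the log2 fold change was 0.29 ± 0.22 (SE, limma adjusted p 0.502).

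The probe set 1595648_at, which carries the same source sequence accession as 1595649_s_at in the annotation, read 1195, 1404, 1943 and 1480 on HHcy 5 to HHcy 8, against 1929, 1126, 1365 and 1550 on controls 1 to 4. The groups overlapped almost wholly, with a log2 fold change of 0.017 ± 0.26 (SE, limma adjusted p 0.976). HHcy 7 was its highest HHcy array, whereas HHcy 6 was the highest on the other 3 probe sets. SLC38A2 thus had log2 fold changes from 0.017 to 0.56, against a median of 0.15 over all tested probe sets. With median scaling that overall median was -0.18, and 2 of the 4 SLC38A2 values changed sign, to -0.074 for 1589920_s_at and -0.34 for 1595648_at.

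The 4 SLC38A2 probe sets varied less between dogs than the median tested probe set. Their standard deviations on the log2 scale were 0.12 to 0.29 in HHcy and 0.14 to 0.40 in controls. The medians over all tested probe sets, which cover far dimmer ones, were 0.49 and 0.44. In controls 1595649_s_at was close to that median, with a lower standard deviation in 44.2% of the tested probe sets. All HHcy arrays were above all controls in 3 of the 6 transporter probe sets, 1 of SLC1A1 and 2 of SLC38A2, against 6.31% of all probe sets. The 5 tested transporter probe sets had a median log2 fold change of 0.56, against 0.15 over all tested probe sets. As 4 of the 5 report one gene, they are not separate observations.

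Other plasma membrane amino acid transporters gave the setting for these values. Of a list of 40 further genes, 12 were on the array with 17 probe sets, and 9 genes were bright enough to test by their brightest probe set. None of the 9 passed with limma (3 at an unadjusted p under 0.05, 2 higher and 1 lower, against 11.9% and 5.94% of all tested probe sets). Their median log2 fold change was 0.51, against 0.15 over all tested probe sets, and it was -0.011 with HHcy 5 and HHcy 6 left out. All HHcy arrays were above all controls in 2 of the 17 probe sets, against 6.31% of all probe sets, and below all controls in 0, against 2.73%.

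SLC6A6, the sodium- and chloride-dependent carrier of taurine, a product of sulfur amino acid breakdown, was one of the genes of lowest p in that list. Its brightest probe set read 403, 1182, 578 and 322 on HHcy 5 to HHcy 8, against 82.8, 270, 379 and 198 on controls 1 to 4. Control 3 lay above HHcy 8, so the groups overlapped, and the log2 fold change was 1.31 ± 0.47 (SE, limma adjusted p 0.201). The second SLC6A6 probe set, named after its values were seen, read 373, 468, 292 and 352 in HHcy, against 145, 45.1, 147 and 128 in controls. Its groups did not overlap, with a log2 fold change of 1.56 ± 0.35 (SE, limma adjusted p 0.121, and 0.0598 to 0.875 over all alternatives).

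SLC3A1, the heavy chain of the cystine and dibasic amino acid carrier of kidney and intestine, was the other gene of lowest p and had lower values in HHcy. It read 131, 164, 175 and 213 on HHcy 5 to HHcy 8, against 535, 675, 210 and 271 on controls 1 to 4. HHcy 8 lay just above control 3, and the log2 fold change was -1.07 ± 0.37 (SE, limma adjusted p 0.193). SLC38A3, a glutamine carrier related to SLC38A2, had log2 fold changes of 1.07 ± 0.49 and 1.32 ± 0.40 (SE) on its 2 probe sets, with limma adjusted p values of 0.280 and 0.201, the second without the brightness filter. The second probe set read 53.3 to 112 in HHcy and 7.17 to 38.9 in controls, and its groups did not overlap.

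SLC1A2 and SLC1A3, glutamate carriers related to SLC1A1, gave mixed values. The brightest SLC1A2 probe set read 500, 295, 189 and 345 on HHcy 5 to HHcy 8, against 489, 600, 460 and 367 on controls 1 to 4, with a log2 fold change of -0.55 ± 0.31 (SE, limma adjusted p 0.365). A second, dimmer SLC1A2 probe set read 61.7, 256, 32.2 and 155 on HHcy 5 to HHcy 8, against 7.34, 61.1, 21.5 and 41.6 on controls 1 to 4. There HHcy 5, HHcy 6 and HHcy 8 were above all controls and HHcy 7 was the lowest HHcy array, as for SLC1A1, and the log2 fold change was 1.23 ± 0.56 (SE, limma adjusted p 0.333 without the filter), opposite in sign to that of the brightest probe set. SLC1A3 read 7792 on HHcy 6, 1041 to 1442 on HHcy 5, 7 and 8 and 1259 to 1614 on controls, so that 1 array set its mean, and its log2 fold change of 0.51 became -0.14 without HHcy 6. SLC43A3 was likewise highest on HHcy 6, at 7519, with 2066 to 2571 on HHcy 5, 7 and 8 and 909 to 2142 on controls for its brightest probe set.

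**Figure D2:**
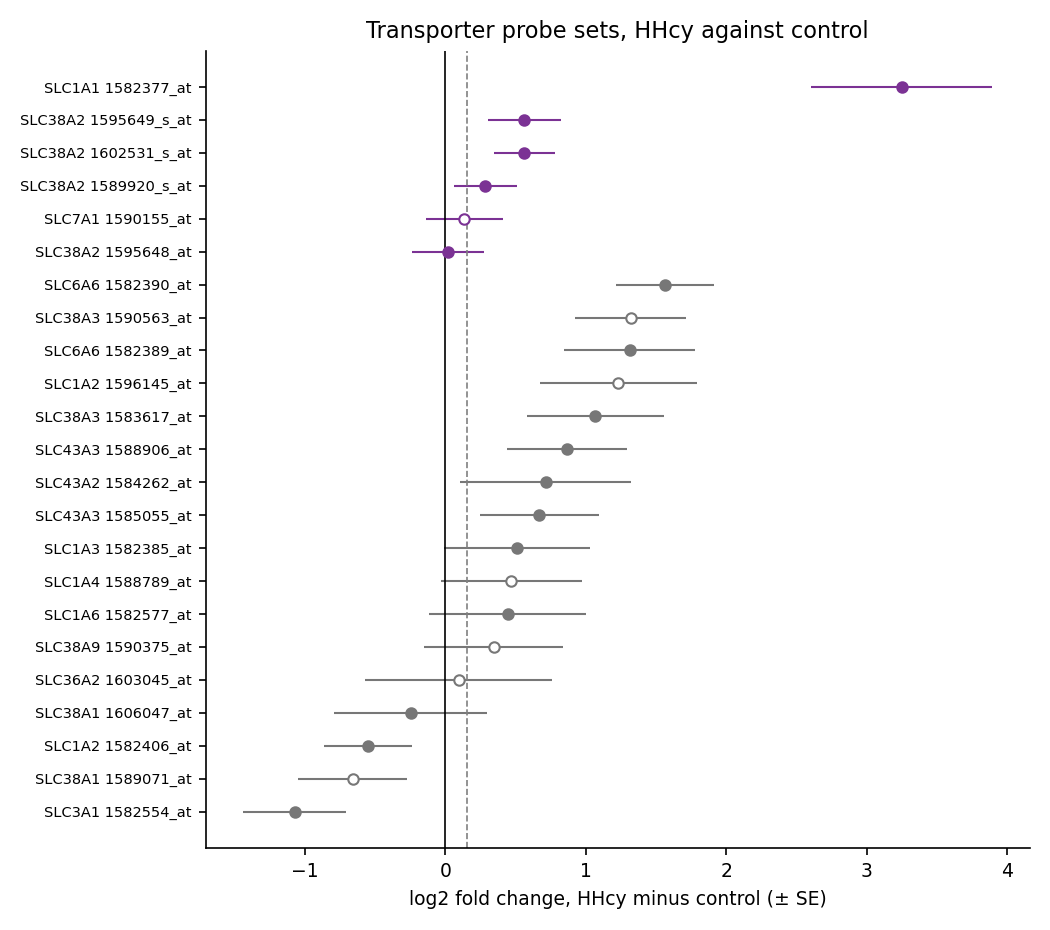
Log2 fold change of HHcy minus control with its SE (x axis) for the 6 probe sets of SLC1A1, SLC7A1 and SLC38A2 (purple, top) and the 17 probe sets of 12 other plasma membrane amino acid transporters (grey). Open circles are probe sets below the brightness filter, and the dashed line is the median of all tested probe sets, 0.15; SLC1A1 lies at 3.25 and the others lie between -1.07 and 1.56.

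The 5 genes whose signals followed SLC1A1 most closely were C3, KRT8, LOC751814, REG3A and CXCL8. Likeness was the root mean square difference over the 8 arrays on the log2(signal + 24) scale, each probe set centred on its own mean. It was 0.71 for complement C3, 0.74 for the epithelial keratin KRT8, 0.77 for LOC751814, which carries the serum amyloid synonym SAA in the RefSeq gene table, 0.84 for a probe set of the antimicrobial lectin REG3A and 0.86 for the chemokine CXCL8. The median over the 7287 probe sets compared was 1.88. Since SLC1A1 differs widely between the groups and among the HHcy arrays, genes picked by this measure largely share both features by the way they were chosen.

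HHcy 7 was the lowest HHcy array for C3, KRT8, LOC751814 and this REG3A probe set, as it was for SLC1A1. KRT8 read 222, 709, 106 and 648 on HHcy 5 to HHcy 8, against 65.8, 30.8, 81.5 and 16.5 on controls 1 to 4, and its groups did not overlap. C3 read 8263, 9704, 2990 and 7665 on HHcy 5 to HHcy 8, against 516, 263, 569 and 629 on controls 1 to 4. CXCL8 read 441 on HHcy 7 and 423 on HHcy 8, so it did not share the high SLC1A1 value of HHcy 8.

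**Figure D3:**
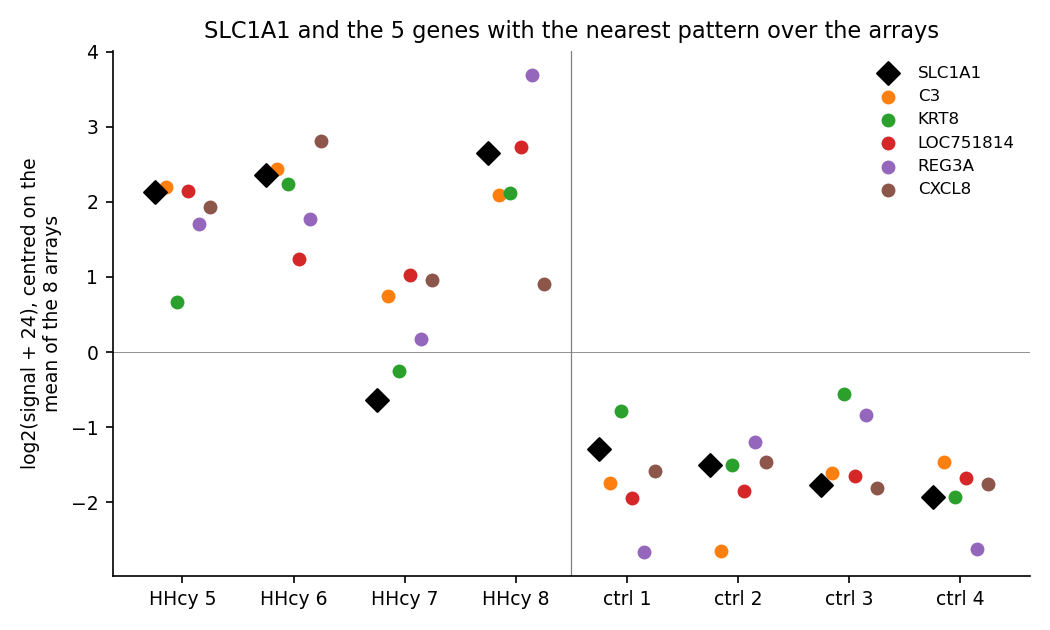
Log2(signal + 24) of SLC1A1 (black diamonds) and of C3, KRT8, LOC751814, REG3A and CXCL8 (coloured circles) on each array (x axis), each centred on its mean over the 8 arrays (y axis). HHcy 7 holds the lowest HHcy value of SLC1A1, C3, KRT8, LOC751814 and REG3A, and the control values of all 6 lie below 0.

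The summed signals of some cell type markers differed between the groups. However, limma called 0 of the 45 tested markers in the 8 lists, against 0.0979% of all tested probe sets. In that fit 16 of the 45 had an unadjusted p under 0.05, all higher. The shares of all tested probe sets were 11.9% higher and 5.94% lower. Of 12 epithelial and mesothelial markers, 4 were on the array, EPCAM, CDH1, KRT8 and KRT18. Their summed signal was 896, 1659, 320 and 1283 on HHcy 5 to HHcy 8, against 288, 125, 275 and 162 on controls 1 to 4. The groups did not overlap, and HHcy 7, the array with the lowest HHcy value of SLC1A1, was also the lowest here. The sum includes KRT8, one of the 5 genes nearest to SLC1A1, so it is not a separate observation of that pattern. KRT18 read 361, 154, 94.9 and 404 in HHcy, against 16.9, 20.2, 79.0 and 20.3 in controls, and EPCAM read 217, 723, 22.8 and 201 in HHcy, against 87.5, 3.33, 93.8 and 44.6 in controls. CDH1, the epithelial cadherin, went another way, at 95.9, 72.9, 96.2 and 30.1 in HHcy, against 118, 70.3, 21.1 and 80.9 in controls, with HHcy 7 its highest HHcy array and a log2 fold change of 0.064.

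The macrophage and myeloid markers, 13 of 15 on the array, summed to 13060 to 23900 in HHcy and 7154 to 9997 in controls. HHcy 8, with the highest SLC1A1 signal, had the lowest HHcy sum there. Fibroblast markers, 6 of 12, summed to 19220 to 52140 in HHcy and 12950 to 19350 in controls. Lymphocyte markers, 4 of 10, summed to 648 to 1069 in HHcy and 225 to 645 in controls. Smooth muscle markers, 4 of 9, were at 60360 on HHcy 6, and at 6582 to 9828 on HHcy 5, 7 and 8 and 5984 to 9806 in controls. MYH11, ACTA2 and TAGLN were highest on HHcy 6, but DES was lowest there, at 99.6 against 2840 to 4370 in controls. Neutrophil markers, 3 of 12, summed to 181 to 375 in HHcy and 95.9 to 246 in controls, and endothelial markers, 6 of 12, to 23100 to 32740 in HHcy and 21590 to 29370 in controls. PECAM1 made most of each endothelial sum. The endothelial log2 fold changes ran from -0.59 for VWF to 0.26 for PECAM1. The macrophage and lymphocyte sums did not overlap between the groups, and the fibroblast, smooth muscle, neutrophil and endothelial sums did. The lowest HHcy lymphocyte sum, 648, was almost level with the highest control sum, 645. CD4 differed most in that list, with mean signals of 469 in HHcy and 149 in controls, and its groups overlapped. The groups also overlapped for CD3E and CD8A, but not for CD3D. No marker was listed at 0 on any array. The part of these cell types in the SLC1A1 and SLC38A2 values was not tested.

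**Figure D4:**
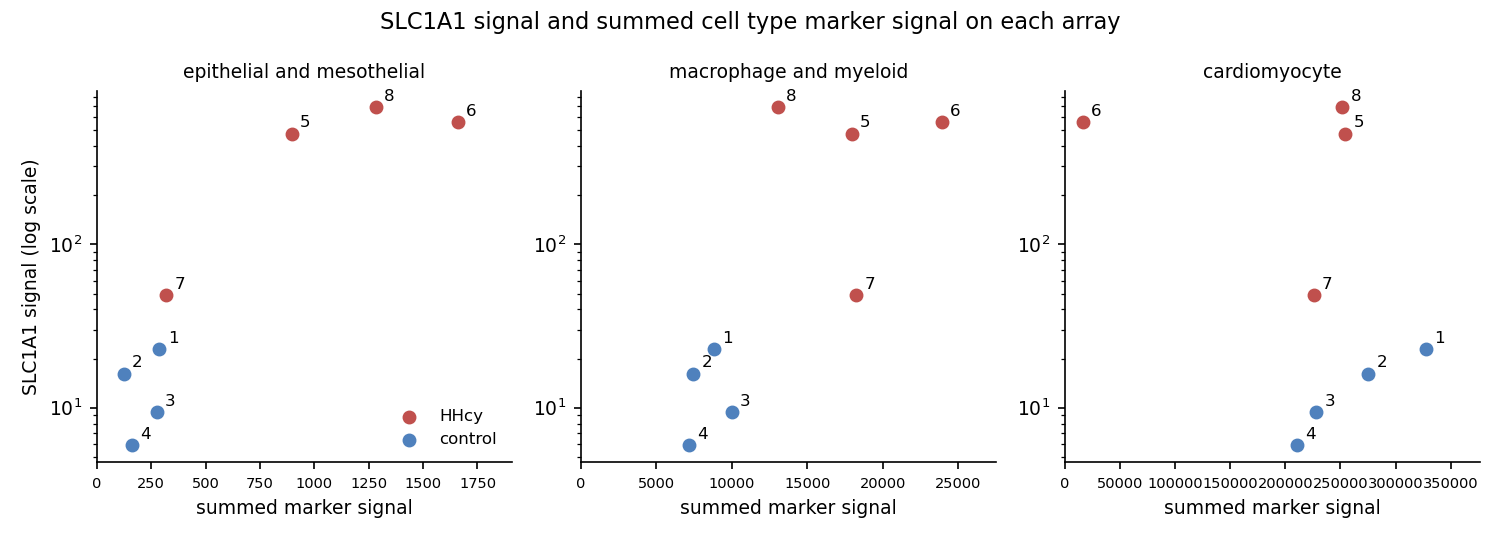
SLC1A1 signal (y axis, logarithmic) against the summed signal of epithelial and mesothelial, macrophage and myeloid, and cardiomyocyte markers (x axes, linear from 0) on each array, numbered by dog. HHcy 7 has the lowest HHcy value of both SLC1A1 and the epithelial sum (49.0 and 320), and HHcy 6 has a cardiomyocyte sum of 16500. The epithelial sum includes KRT8, one of the genes nearest to SLC1A1 in pattern.

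SLC38A2 belongs to the genes that the transcription factor ATF4 can switch on when amino acids run short, as known from human and rodent cells. Of 28 genes of that response, 15 were on the array and tested, and limma called 0 (5 at an unadjusted p under 0.05, 4 higher and 1 lower), against 0.0979% of all tested probe sets called and 11.9% higher and 5.94% lower at that unadjusted p. Their median log2 fold change was 0.30, against 0.15 over all tested probe sets. All HHcy arrays were above all controls in 4 of the 15, against 7.49% of the tested probe sets.

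The genes of lowest p in that list were MARS1 and PSPH. MARS1, the methionyl-tRNA synthetase, read 383, 520, 251 and 335 on HHcy 5 to HHcy 8, against 202, 200, 121 and 230 on controls 1 to 4. Its groups did not overlap, with a log2 fold change of 0.89 ± 0.30 (SE, limma adjusted p 0.193). PSPH, the last enzyme of serine synthesis, read 1547, 2134, 2523 and 1151 in HHcy, against 1009, 1000, 1010 and 1015 in controls, a log2 fold change of 0.79 ± 0.27 (SE, limma adjusted p 0.193).

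ATF4 itself and asparagine synthetase ASNS, a target of it, were named after their values were seen. ATF4 read 8707, 4089, 9961 and 13630 in HHcy, against 11710, 14430, 9859 and 11310 in controls, and the groups overlapped. ASNS read 316, 558, 248 and 108 in HHcy, against 69.1, 147, 59.5 and 215 in controls, and HHcy 8 fell among the controls.

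For SLC1A1, a further 14 genes covered proteins that bind it or handle glutamate and glutathione, of which 8 were tested. None passed with limma (0 at an unadjusted p under 0.05), against 0.0979% of all tested probe sets called and 17.8% under that unadjusted p. Their median log2 fold change was -0.20, against 0.15 over all tested probe sets. ARL6IP1, a membrane protein of the endoplasmic reticulum, read 24830 to 29630 in HHcy and 18670 to 24420 in controls without overlap, with a log2 fold change of 0.33 ± 0.20 (SE, limma adjusted p 0.401). GOT1, the cytosolic aspartate aminotransferase, read 484 on HHcy 6, 7197 to 8210 on HHcy 5, 7 and 8 and 7358 to 8935 on controls, so its log2 fold change of -1.09 ± 0.73 (SE, limma adjusted p 0.439) rested on 1 array.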

How the data were processed

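The authors deposited 1 table of linear intensities per probe set. MAS5 made them, per the submitters' processing notes, and its version is not given in these sources. The 8 arrays were grouped by their titles, and the labels speak of separate dogs. Array means agree once 2% is trimmed at each end (500.08 to 500.10 units), so no scaling was added. Symbols came from the platform annotation (10549 probe sets with 1 symbol, 138 with several, 13226 with none), and 10046 of the first were found in the RefSeq gene table by their gene identifiers.

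Values were analysed as log2(value + 24). The 77 control probe sets and the dimmest 40% by mean were left out, and 14301 were tested with limma 3.58.1 in R 4.3.3, intensity trend and Benjamini-Hochberg adjustment at 0.05. The procedure was tested on simulated data with the same spread in both groups. That test does not cover unequal spread such as that of SLC1A1. Lists were described by the brightest probe set of each gene. The members and lists were chosen with earlier results of these data known. Genes named were every member probe set and the 5 genes nearest to SLC1A1 in pattern. From each of the 5 lists that are not cell type markers, the passing genes or else the 2 of lowest p were named. Others are marked in the text or belong to the transporter or cell type marker lists. Single markers outside the epithelial list were picked by their values. Alternatives were quantile and median scaling, pseudocounts of 6 and 96, no filter and 60% left out, no intensity trend, array weights, each array left out, HHcy 5 and HHcy 6 left out, and a 3'/5' ratio covariate. Fits without the filter that left out HHcy 8, or HHcy 5 and HHcy 6, were added after seeing the data.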

Additional observations from a re-analysis of the deposited data

Results flagged for a closer look

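Among 82 groups of 4 arrays checked, 10 held an array whose gap to its nearest neighbour, as a share of the group's range on the log2 scale, exceeded Dixon's critical value, where chance gives about 1 in 20. For SLC1A1 the share was 0.844, from HHcy 7 at a signal of 49.0, below the other HHcy arrays. For the SLC38A2 probe set 1589920_s_at it was 0.842, from HHcy 6 at 2063.

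HHcy 6 was also the separate array for SLC1A3, with a share of 0.840 at a signal of 7792, and for the brighter SLC43A3 probe set, with 0.831 at 7519. It was so too for GOT1, with 0.953 at a low signal of 484, and for the glycine carrier SLC25A38, with 0.970 at 290. Control 2 stood below the other controls for the second SLC6A6 probe set, with a share of 0.871 at 45.1, and for the dimmer SLC43A3 probe set, with 0.830 at 689. Control 3 stood above the other controls for KRT18, with 0.914 at 79.0, and for SLC38A9, with 0.862 at 56.1.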

How the results depend on the processing

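No paired analysis was possible because the 2 groups share no replicate number. The count of called probe sets, 14 as reported, was 7 with quantile scaling, 22 with median scaling (15 higher and 7 lower), 9 with the dimmest 60% left out, 76 with array weights, 5 with HHcy 5 and HHcy 6 left out, 5 with a 3'/5' ratio covariate, and 3 to 31 when each array was left out in turn. Transporter probe sets called, 0 as reported, were 1 with array weights and 0 to 1 when each array was left out, the 1 being SLC1A1 (log2 fold change 3.17 with array weights). The log2 fold change of SLC1A1 was positive in every setting that gave one. As all HHcy arrays were above all controls, leaving out arrays or changing the pseudocount could not alter that sign. It was 3.0 to 4.01 with single arrays left out, and 2.91 without HHcy 8 and without the filter. With the filter SLC1A1 was not tested there, nor with HHcy 5 and HHcy 6 or the dimmest 60% left out. None of the other transporter list was called in any alternative. The difference in mean log2 3'/5' ratio was 1.5 to 3.17 with single arrays left out, the highest without HHcy 8 (exact permutation p 0.0286, the smallest possible there).

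Signs changed as follows, and the cause was not tested. With median scaling the log2 fold change was -0.074 and -0.34 for SLC38A2 1589920_s_at and 1595648_at and -0.031 for ARL6IP1. With single arrays left out, 1595648_at ran from -0.11 (without HHcy 7 or control 2; -0.016 without control 3) to 0.15, SLC1A3 from -0.14 (without HHcy 6) to 0.82, SLC38A1 from -0.55 to 0.18 (without HHcy 8), SLC1A6 from -0.097 (without control 2) to 0.83 and CDH1 from -0.26 (without control 3) to 0.33. With HHcy 5 and HHcy 6 left out it was -0.011 for SLC1A3 and for the median of the other transporters and -0.032 for SLC43A2. With a 3'/5' ratio covariate it was -0.028 for that median, -0.48 for SLC1A3, -0.0015 for SLC43A2, -0.18 and -0.028 for SLC43A3, 0.52 for GOT1 and 0.25 for ATF4.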

Other observations

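Carriers of amino acids in mitochondria and lysosomes were sparsely covered, with 5 of 14 genes on the array and 3 tested, of which limma called 0 (2 at an unadjusted p under 0.05), against 0.0979% of all tested probe sets called and 17.8% under that unadjusted p. SLC25A38, the mitochondrial glycine carrier, read 227, 290, 229 and 228 on HHcy 5 to HHcy 8, against 81.5, 92.5, 105 and 171 on controls 1 to 4. The groups did not overlap, with a log2 fold change of 1.0 ± 0.30 (SE, limma adjusted p 0.162), but a second SLC25A38 probe set, below the brightness filter, had -0.11. CTNS, the lysosomal cystine exporter, read 624, 648, 469 and 389 in HHcy, against 541, 232, 296 and 201 in controls, a log2 fold change of 0.77 ± 0.33 (SE, limma adjusted p 0.256).

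Of 23 genes of leucine sensing and the mTORC1 kinase complex, which reads amino acid supply, 13 were on the array and 12 tested, and limma called 0 (2 of the 12 at an unadjusted p under 0.05, both higher, against 17.8% of all tested probe sets in either direction). Their median log2 fold change was 0.28, against 0.15 over all tested probe sets. RPS6KB1, a kinase that mTORC1 activates, read 979, 1541, 1130 and 875 in HHcy, against 538, 697, 863 and 746 in controls, a log2 fold change of 0.64 ± 0.26 (SE, limma adjusted p 0.244). TSC2, an inhibitor of mTORC1, read 399, 537, 287 and 412 in HHcy, against 347, 167, 277 and 202 in controls, a log2 fold change of 0.68 ± 0.30 (SE, limma adjusted p 0.268).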
